A study of Mus musculus with 6 samples.

Results

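The genes described here are 36 genes of the autophagy machinery and of the TFEB family of transcription factors, measured in bone marrow-derived macrophages (BMDMs) with and without excess salt. They were matched by gene symbol, and all 36 were found among the 15903 genes tested, out of 57010 genes in the table of raw counts. By role they comprised 5 genes of the initiation kinase complex, 5 of the class III lipid kinase complexes, 5 for WIPI proteins and lipid transfer, 10 for conjugation enzymes and ATG4 proteases, 5 of the ATG8 family, 3 for cargo receptors and 3 of the TFEB family. They lie on 19 chromosomes.

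BMDMs are macrophages that M-CSF, a growth factor of this lineage, brings out of cultured marrow. Marrow came from 3 Cx3cr1GFP mice on a C57BL/6J background, so cells of both groups carried a GFP sequence in the *Cx3cr1* gene, and was grown for 7 days with 10 ng/ml M-CSF. Cells of each mouse were left unstimulated (control, n = 3) or received 62 mM excess NaCl for 24 h (NaCl, n = 3), and adherent cells only were taken for polyadenylated RNA. Ages and sexes are not given in the sources used here, and floating cells were not measured. The libraries held 8520433, 11315918 and 20123570 counts for control mice 1, 2 and 3, and 8635499, 11610020 and 4088065 counts for NaCl mice 1, 2 and 3, so the NaCl library of mouse 3 was the shallowest. The 36 genes took from 0.261% to 0.331% of the counts of a library. The lowest count of any member was 40, for *Atg10* in the NaCl library of mouse 3, and the median member count ranged from 240 in that library to 1049 in the control library of mouse 3. Levels are given as CPM, counts scaled to library size, for which edgeR took effective sizes from TMM, and errors are the SD over 3 mice. In bulk RNA, fewer cells of a type and less RNA per cell cannot be told apart.

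Macroautophagy encloses cytoplasm in a double membrane and delivers it to the lysosome. The ULK1 kinase complex starts the process, a class III phosphatidylinositol 3-kinase marks the growing membrane, ATG2 and ATG9 proteins supply lipid to it, and ubiquitin-like conjugation systems attach ATG8 proteins such as LC3 and GABARAP to it. Cargo receptors such as p62, the product of *Sqstm1*, bind ubiquitinated cargo and ATG8 proteins together. TFEB, TFE3 and MITF enter the nucleus when the kinase mTORC1 is inactive and switch on lysosomal and autophagy genes through E-box elements with the core CACGTG. In macrophages the same machinery handles microbes, and a part of it that includes conjugation enzymes handles phagosomes that have taken up dead cells.

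Because that core defines the element bound by the TFEB family, the member promoters that hold it are shown first. RefSeq promoters of GRCm38.p6, which run from 250 bases before to at most 50 bases after each start site, were matched by symbol for 30 of the 36 genes. CACGTG, which reads the same on both strands, was found in 4 of their 37 promoters, those of 4 genes, and in 7.15% of all 32851 promoters. The longer GTCACGTG, which contains it and was searched on both strands, was found in 3 of the 37 and in 2.25% of all promoters. TGATGNAA, the form of an amino acid response element, was found in none of the 37 and in 3.97% of all promoters, again on both strands. The windows below give CACGTG in capitals, 5′ to 3′ on the strand of the gene. That of *Atg5* is 30 bases long and the others are 38, because its sequence ends sooner after the match.
*Atg14* (chr14:47568414-47568451, minus strand): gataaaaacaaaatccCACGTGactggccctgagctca
*Atg3*, first match (chr16:45158719-45158756, plus strand): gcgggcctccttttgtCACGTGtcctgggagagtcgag
*Atg3*, second match (chr16:45158742-45158779, plus strand): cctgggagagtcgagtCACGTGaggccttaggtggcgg
*Atg5* (chr10:44268309-44268338, plus strand): agggcggagcgcttgcCACGTGgtcttggt
*Atg7* (chr6:114670948-114670985, plus strand): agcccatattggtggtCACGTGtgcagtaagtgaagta
The match began 1 base before the start site in *Atg14*, 94 and 71 bases before it in *Atg3*, 14 in *Atg5* and 132 in *Atg7*. None of these 4 genes passed the threshold in edgeR with or without the block or in DESeq2, with log2 fold changes in the fit with the replicate block of -0.21 for *Atg14*, -0.03 for *Atg3*, -0.04 for *Atg5* and -0.03 for *Atg7*.

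Of the 36 autophagy genes, only *Sqstm1* passed the threshold in any of 3 fits after 24 h of excess NaCl, and it was lower. In edgeR's quasi-likelihood test without a further term, 0 of the 36 genes were higher and 0 were lower at an adjusted p of 0.05 (Benjamini-Hochberg over 15903 genes), and 4 had an unadjusted p under 0.05. Among all genes tested, 0.478% were called higher, 0.176% were called lower, and 12.6% had an unadjusted p under 0.05. With the mouse as a replicate block, 0 were higher and 1, *Sqstm1*, was lower, where the background was 4.6% higher and 4.3% lower, and 5 members had an unadjusted p under 0.05, against 22.1% of all genes. DESeq2 without the block also called 0 higher and 1 lower, again *Sqstm1*, against 1.54% and 0.975% of all genes.

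The median log2 fold change of the 36 genes was -0.06 in both edgeR fits, and that of all genes tested was -0.01 without and -0.02 with the block. The block fit placed 12 members above 0 and 24 below 0, from -0.57 for *Sqstm1* to 0.45 for *Atg16l2*. For 31 of the 36 genes the 95% interval in that fit lay within a 1.5-fold change in either direction. The 3 NaCl libraries lay above the 3 control libraries in CPM for 4 members and below them for 6, where 8.92% and 10.1% of all genes did so. In the other 26 the groups overlapped. By mouse, 9 members were higher in NaCl in 3 of 3 mice and 11 were lower, against 20.1% and 23.4% of all genes.

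**Figure D1:**
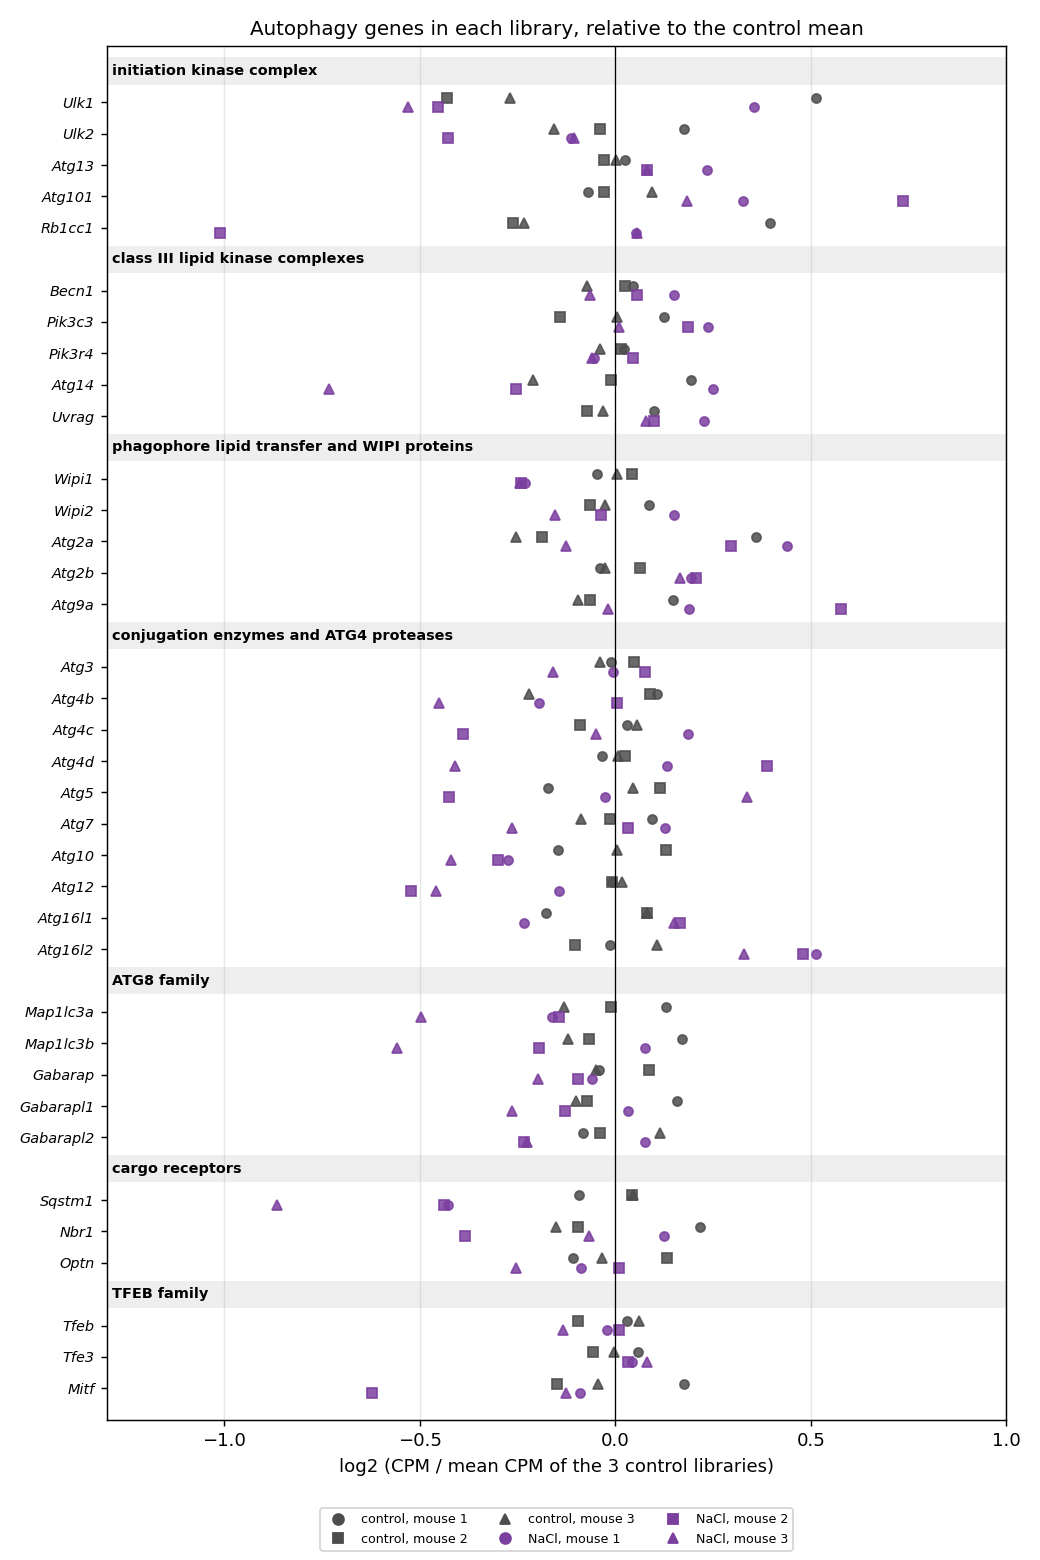
Each row is 1 of the 36 autophagy genes, grouped by role, and each point is 1 library (control in grey, NaCl in purple, shape by mouse), placed by log2 of its CPM over the mean CPM of the 3 control libraries. The purple points of *Sqstm1* lie left of its grey points, those of *Atg16l2* and *Atg101* lie right of theirs, and 26 rows overlap.

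*Sqstm1* (ENSMUSG00000015837.16, chromosome 11) encodes p62, the receptor for ubiquitinated cargo that is itself degraded by autophagy and that also serves as a signalling scaffold. Its level was 611, 670 and 672 CPM in control mice 1, 2 and 3 and 484, 481 and 357 CPM in the NaCl libraries of the same mice, resting on 1491 to 13330 counts per library. All 3 NaCl libraries were below all 3 control libraries, and the lowest was the NaCl library of mouse 3. The mean fell from 651 ± 35.0 to 441 ± 72.3 CPM (SD, n = 3). With the block, edgeR gave a log2 fold change of -0.57 (SE 0.13, adjusted p = 0.00328), which is a change of -32.8% with a 95% interval from -43.8% to -19.7%. Without the block the log2 fold change was -0.56 (SE 0.15) with an adjusted p of 0.149 in edgeR, and DESeq2 gave -0.55 with an adjusted p of 0.0346.

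By mouse, the log2 ratio of NaCl to control CPM for *Sqstm1* was -0.34 in mouse 1, -0.48 in mouse 2 and -0.91 in mouse 3. The call rested on mouse 3, since the block fit without that mouse gave -0.40 with an adjusted p of 0.124, while it gave -0.68 (adjusted p = 0.0208) without mouse 1 and -0.61 (adjusted p = 7.43e-08) without mouse 2 in edgeR. The edgeR fit without the block did not call *Sqstm1* on all libraries. With 1 library left out of that fit, the log2 fold change ran from -0.63 to -0.43. It was smallest without the NaCl library of mouse 3 (-0.43, adjusted p = 0.303 in edgeR). The adjusted p was highest without the control library of mouse 2 (-0.53, adjusted p = 0.601 in edgeR). Thinned to equal depth, the block fit gave -0.56 with an adjusted p of 0.00423. Relative to *Nbr1*, the other large ubiquitin-binding receptor, the log2 ratio of *Sqstm1* fell by 0.24, 0.19 and 1.00 in mice 1, 2 and 3, and relative to *Gabarap* it fell by 0.32, 0.30 and 0.76. In the GENCODE M21 models, 17.3% of the exon bases of *Sqstm1* overlap *Mrnip* on the opposite strand, and the counts carry no strand. *Mrnip* had 1.52 ± 0.56 CPM in the control and 2.25 ± 0.96 CPM in the NaCl libraries. The effect of the overlap on the *Sqstm1* count was not tested.

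The 250 bases before the *Sqstm1* start site (chr11:50210821-50211070, minus strand, GRCm38.p6, from RefSeq) are shown because this was the member that passed. They hold no CACGTG or TGATGNAA. The capitals mark GGGCGG on either strand, the core of the GC box, of which there are 3 matches and which was searched for after the sequence had been seen.
*Sqstm1* promoter: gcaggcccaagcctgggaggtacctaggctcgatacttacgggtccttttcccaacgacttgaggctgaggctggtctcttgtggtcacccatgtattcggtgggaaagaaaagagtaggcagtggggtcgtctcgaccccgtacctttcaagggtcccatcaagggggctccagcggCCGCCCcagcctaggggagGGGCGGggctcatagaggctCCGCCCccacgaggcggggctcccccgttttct
GGGCGG was present in 24 of the 37 member promoters and in 35.7% of all promoters.

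The 2 other cargo receptors did not pass. *Nbr1*, a receptor that binds ubiquitin and ATG8 proteins, was at 195, 157 and 151 CPM in control and 183, 129 and 160 CPM in NaCl, a mean of 168 ± 23.9 against 157 ± 27.3 CPM. The groups overlapped, and mouse 3 was higher in NaCl while mice 1 and 2 were lower. Its log2 fold change with the block was -0.10 (SE 0.12, adjusted p = 0.693, edgeR), with a 95% interval from -0.34 to 0.14. *Optn*, encoding optineurin, a receptor for damaged mitochondria and bacteria, was low at 16.9, 20.0 and 17.9 CPM in control and 17.2, 18.4 and 15.3 CPM in NaCl. These values overlapped too, and the block fit in edgeR gave -0.10 (SE 0.15, adjusted p = 0.764). Scaled per kilobase of exon, *Sqstm1* made up 86.8 ± 1.9% of the summed level of the 3 receptors in control and 82.5 ± 3.2% in NaCl.

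Each of the 5 ATG8 genes had a fitted change below 0, between -0.25 for *Map1lc3a* and -0.11 for *Gabarapl1* with the block, and 0 of the 5 passed in edgeR with or without the block or in DESeq2. At an unadjusted p of 0.05 the count was also 0 in each of these fits. *Map1lc3a* and *Map1lc3b* encode LC3A and LC3B, the proteins whose lipid-bound form is read as a mark of autophagosomes. *Map1lc3a* was at 21.5, 19.5 and 17.9 CPM in control and 17.5, 17.8 and 13.9 CPM in NaCl, so that the NaCl values lay just below the control values (edgeR with block, log2 fold change -0.25, SE 0.15, adjusted p = 0.346). *Map1lc3b* was at 121, 103 and 98.9 CPM in control and 113, 93.9 and 73.1 CPM in NaCl, lower in each mouse but with overlapping groups (-0.21, SE 0.12, adjusted p = 0.311).

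*Gabarap*, encoding an ATG8 protein of the GABARAP branch, which acts late in autophagosome closure and fusion, was the most abundant of the family. Its CPM was 329, 360 and 327 in control and 325, 317 and 295 in NaCl, so the lowest control value lay just above the highest NaCl value (edgeR with block, log2 fold change -0.12, SE 0.11, adjusted p = 0.622). *Gabarapl1* was at 148, 126 and 124 CPM in control and 136, 121 and 110 CPM in NaCl, and the groups overlapped (-0.11, SE 0.12, adjusted p = 0.629). *Gabarapl2*, encoding GATE-16, was at 20.1, 20.7 and 23.1 CPM in control and 22.5, 18.1 and 18.2 CPM in NaCl, higher than control in mouse 1 and lower in mice 2 and 3 (-0.12, SE 0.15, adjusted p = 0.716).

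Per kilobase of exon, *Gabarap* held 63.4 ± 2.7% of the summed ATG8 level in control and 64.0 ± 1.7% in NaCl, and *Gabarapl1* held 22.7 ± 2.0% and 22.9 ± 0.75%. The shares of *Map1lc3a*, *Map1lc3b* and *Gabarapl2* were 5.73 ± 0.38%, 4.94 ± 0.46% and 3.17 ± 0.35% in control and 5.23 ± 0.40%, 4.66 ± 0.67% and 3.18 ± 0.25% in NaCl. The order of the 5 was the same in both groups. *Gabarapl2* shares 9.53% of its 75-base windows with other genes, most of them with *Gm3724*, so part of its reads could have been left uncounted, and 28.3% of the exon bases of *Gabarapl1* overlap *1700101I11Rik* on the opposite strand, which stood at 0.58 CPM or less on average.

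**Figure D2:**
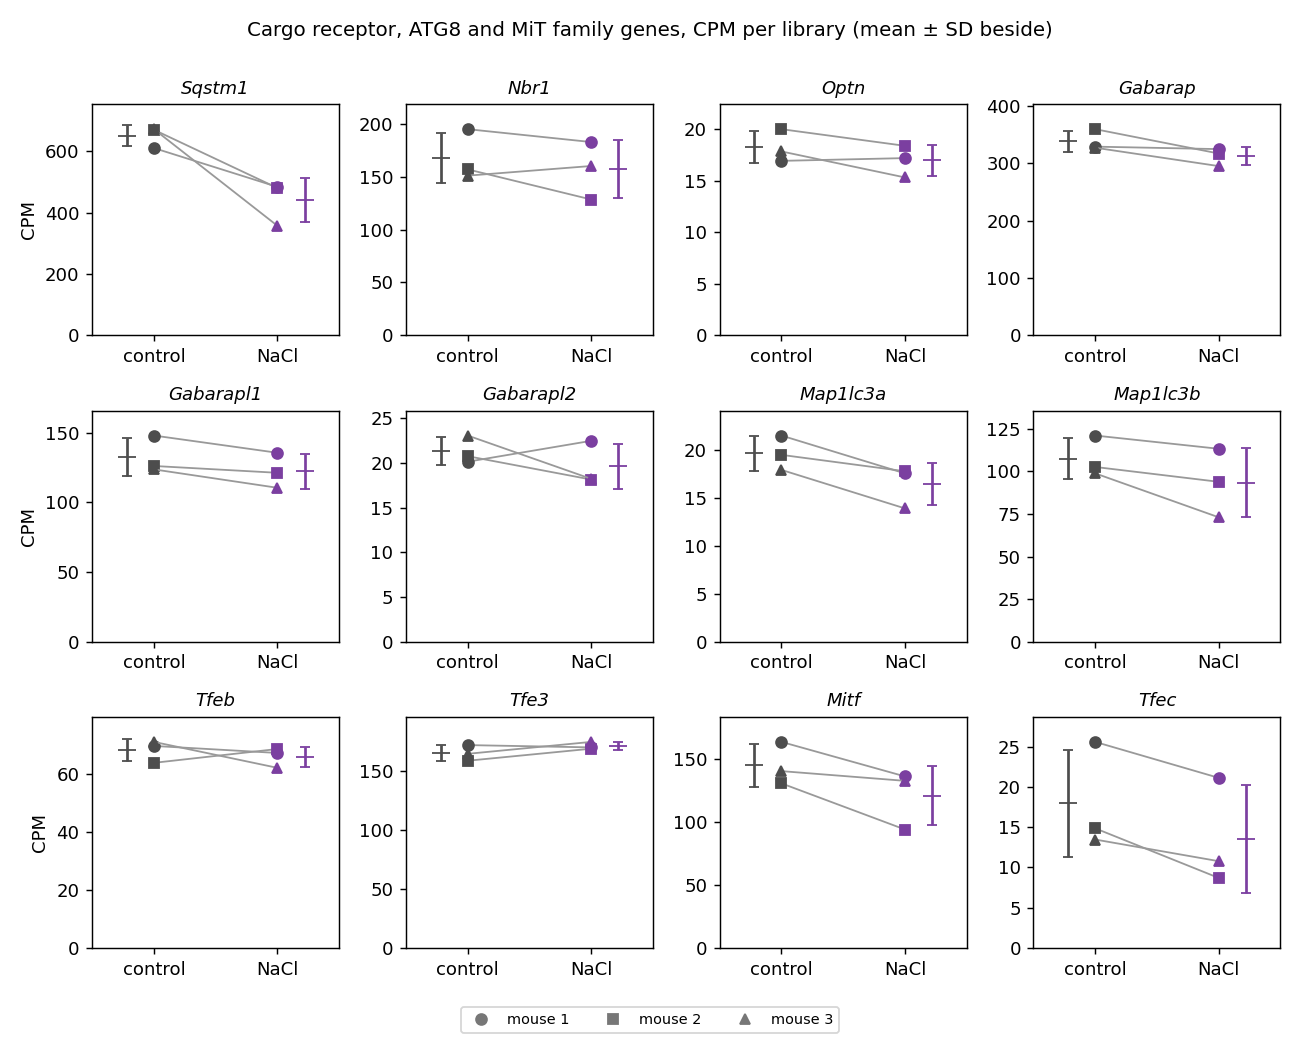
CPM of the 3 cargo receptor genes, the 5 ATG8 genes and the 4 MiT family genes in control and NaCl, with each axis starting at 0, grey lines joining the libraries of 1 mouse, and bars giving mean ± SD (n = 3). *Sqstm1* falls in 3 of 3 mice, from 651 to 441 CPM on average, while the lines of *Tfeb* and *Tfe3* are nearly flat.

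The 3 TFEB family genes did not pass in any of the 3 fits. *Tfeb* was at 69.6, 63.8 and 71.0 CPM in control and 67.2, 68.5 and 62.0 CPM in NaCl, a mean of 68.1 ± 3.8 against 65.9 ± 3.4 CPM. The groups overlapped, and the log2 fold change with the block was -0.04 (SE 0.12, adjusted p = 0.886, edgeR), with a 95% interval from -0.29 to 0.20. *Tfe3*, on the X chromosome, was at 171, 158 and 164 CPM in control and 170, 168 and 174 CPM in NaCl, also overlapping (0.05, SE 0.11, adjusted p = 0.853 in edgeR, interval from -0.18 to 0.29). Both intervals lay within a 1.5-fold change in either direction.

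*Mitf*, the family member best known from melanocytes and osteoclasts, was at 164, 131 and 140 CPM in control and 136, 94.1 and 133 CPM in NaCl. It was lower in NaCl in 3 of 3 mice, but the groups overlapped and the adjusted p missed the threshold (edgeR with block, log2 fold change -0.27, SE 0.12, unadjusted p = 0.0294, adjusted p = 0.165). *Tfec*, the remaining MiT gene, which is expressed mainly in myeloid cells, was at 25.6, 14.9 and 13.5 CPM in control and 21.1, 8.70 and 10.8 CPM in NaCl, with mouse 1 highest in both groups (-0.45, SE 0.16, adjusted p = 0.0821 in edgeR with block). On the scale of CPM per kilobase of exon, *Mitf* had the highest level of the 4 with 41.4 ± 1.2% of their sum in control and 37.3 ± 4.4% in NaCl, followed by *Tfe3* with 31.6 ± 1.5% and 35.6 ± 3.0%, *Tfeb* with 21.4 ± 1.4% and 22.5 ± 2.8%, and *Tfec* with 5.62 ± 1.6% and 4.56 ± 1.9%. In NaCl the ranges of *Mitf* and *Tfe3* overlapped. The RNA level does not show where these proteins are in the cell.

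The 5 genes of the initiation kinase complex moved in both directions, with 0 called in edgeR with or without the block and in DESeq2. *Ulk1* and *Ulk2* encode the kinases, *Rb1cc1* encodes the scaffold FIP200, and *Atg13* and *Atg101* encode the adaptor pair of the complex. *Atg101* (ENSMUSG00000037204.8, chromosome 15) was at 25.7, 26.5 and 28.8 CPM in control and 33.9, 45.0 and 30.7 CPM in NaCl. The NaCl values lay above all control values, the highest in mouse 2, and the adjusted p was close to the threshold with the block (edgeR, log2 fold change 0.43, SE 0.14, adjusted p = 0.0543) and 0.319 without it. *Atg13* was also above control in all NaCl libraries, from 60.2 ± 1.1 to 66.1 ± 4.1 CPM, with a fitted change of 0.13 and an interval that included 0. *Ulk2* and *Rb1cc1* had fitted changes of -0.21 and -0.27 with overlapping groups. Per kilobase of exon, *Atg101* was the most abundant of the complex in control at 16.9 CPM and *Rb1cc1* the least at 3.60 CPM.

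The class III lipid kinase genes showed no change past the threshold, with 0 of 5 called in edgeR with or without the block and in DESeq2, and 0 with an unadjusted p under 0.05. *Pik3c3* encodes the kinase VPS34, *Pik3r4* its regulatory partner VPS15, *Becn1* Beclin 1, and *Atg14* and *Uvrag* the subunits that direct the complex to autophagosomes and to endosomes. Their fitted changes with the block ran from -0.21 for *Atg14* to 0.15 for *Pik3c3*, and all 5 intervals lay within a 1.5-fold change. *Pik3c3* had the highest level per kilobase of exon in control, at 10.8 CPM, and *Atg14* the lowest, at 5.16 CPM. Of the exon bases of *Becn1*, 43.9% overlap *Cntd1* on the opposite strand, which had 0.43 ± 0.12 CPM in the control and 0.56 ± 0.078 CPM in the NaCl libraries. Reads in that stretch could have been left uncounted. The place of *Becn1* in this order, at 9.43 CPM per kilobase in control, is therefore uncertain.

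Among the WIPI and lipid transfer genes, 0 of 5 were called in the same 3 fits and 0 had an unadjusted p under 0.05. WIPI proteins read the lipid made by VPS34, ATG2 proteins carry lipid to the growing membrane, and ATG9A is a lipid scramblase of the vesicles that seed it. *Wipi1* was at 35.7, 38.0 and 37.0 CPM in control and at 31.4, 31.2 and 31.1 CPM in NaCl, apart in all libraries, while *Wipi2* was at 69.8 ± 3.8 and 69.5 ± 7.5 CPM. *Atg2b* lay above control in all NaCl libraries, from 41.2 ± 1.6 to 47.0 ± 0.69 CPM. The block fit gave log2 fold changes of -0.24 for *Wipi1* (adjusted p = 0.288 in edgeR) and 0.19 for *Atg2b* (adjusted p = 0.403). *Atg2a* and *Atg9a* had fitted changes of 0.23 and 0.27 with overlapping groups, and 32.6% of the exon bases of *Atg9a* overlap *Gm29253* on the same strand. Per kilobase of exon in control, *Atg2a* was highest at 8.67 CPM and *Atg2b* lowest at 3.06 CPM.

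**Figure D3:**
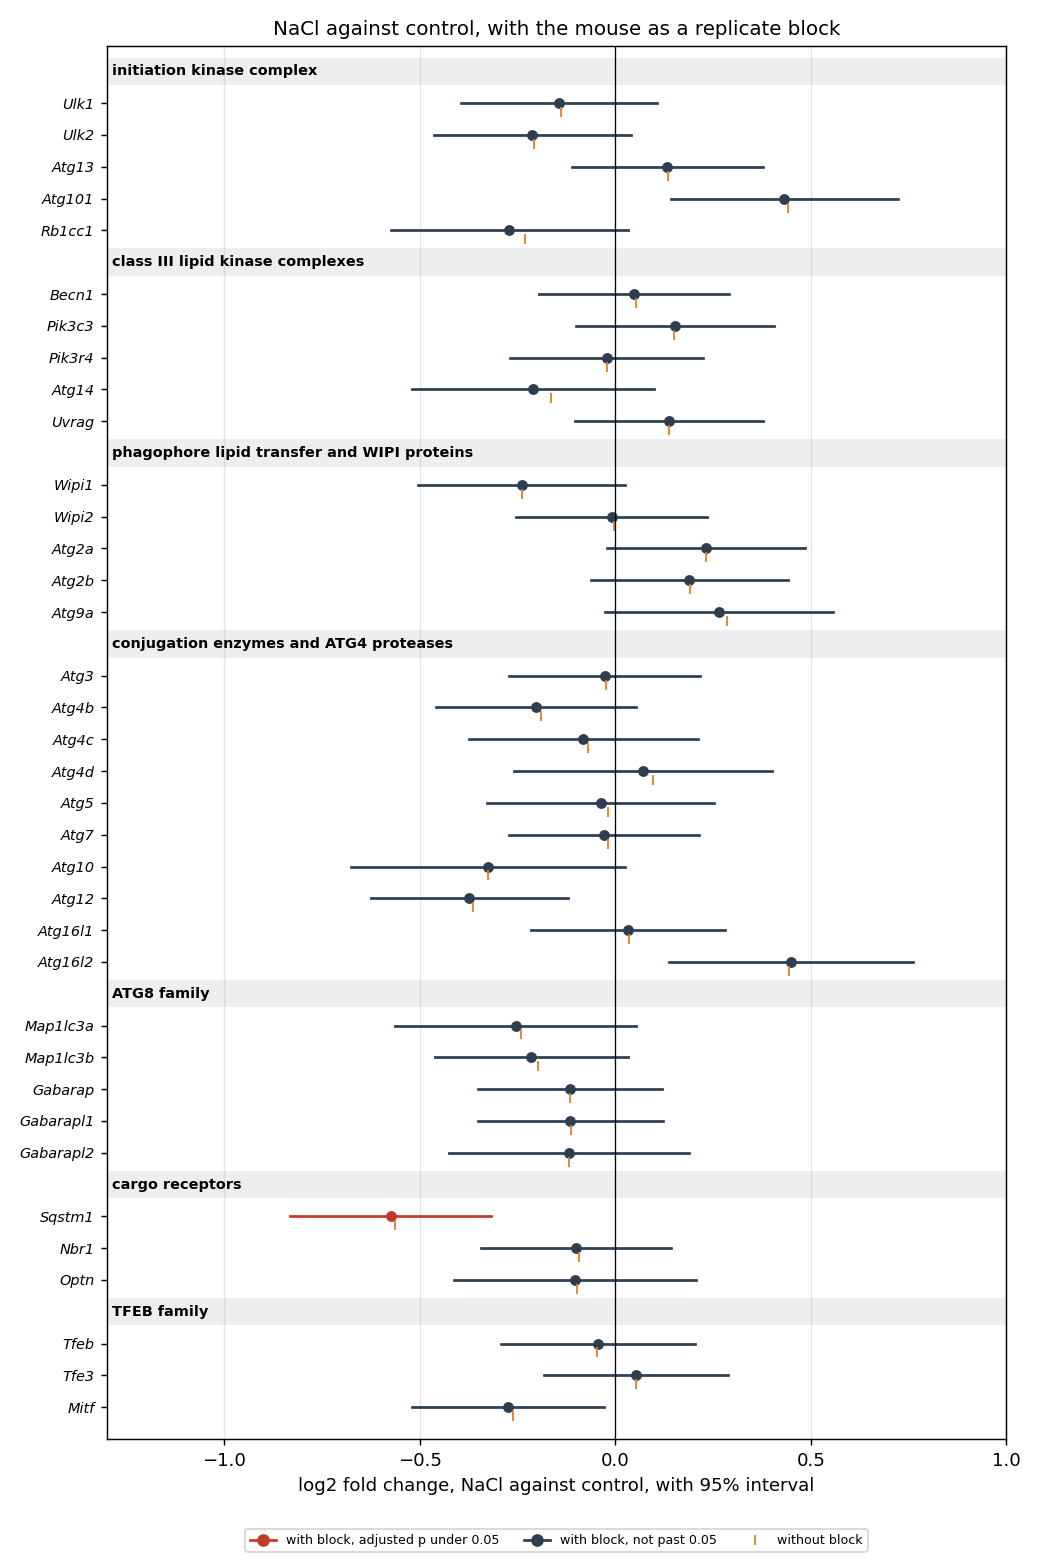
Log2 fold change of NaCl against control for the 36 genes by role, from edgeR with the mouse as a replicate block (points, with 95% intervals) and without it (orange ticks). The interval of *Sqstm1*, in red, is the one of a gene with an adjusted p under 0.05, and those of *Atg101*, *Atg12*, *Atg16l2* and *Mitf* also miss 0 before adjustment.

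Of the 10 conjugation enzyme and protease genes, 0 were called in edgeR with or without the block or in DESeq2, and 2, *Atg12* and *Atg16l2*, had an unadjusted p under 0.05 in each. ATG7 is the E1-like enzyme, ATG3 and ATG10 are the E2-like enzymes, the ATG12-ATG5-ATG16L1 conjugate places ATG8 proteins on the membrane, and ATG4 proteases process and recycle them. *Atg12* (ENSMUSG00000032905.6, chromosome 18) encodes the ubiquitin-like protein of the conjugate and was at 88.7, 88.7 and 90.3 CPM in control and 80.8, 62.1 and 64.9 CPM in NaCl. All NaCl libraries were below control (edgeR with block, log2 fold change -0.37, SE 0.12, adjusted p = 0.0545, and 0.313 without the block). Its partner gene *Atg5* had 45.9 ± 4.6 CPM in the control and 45.7 ± 11.9 CPM in the NaCl libraries.

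*Atg16l2* (ENSMUSG00000047767.18, chromosome 7), the paralogue of *Atg16l1*, was at 15.1, 14.2 and 16.4 CPM in control and 21.8, 21.3 and 19.2 CPM in NaCl, with all NaCl libraries higher (edgeR with block, 0.45, SE 0.15, adjusted p = 0.0625, and 0.269 without the block). *Atg16l1* itself was at 51.6 ± 5.2 and 53.0 ± 7.9 CPM with overlapping groups. As a level per kilobase of exon, *Atg16l2* made up 25.2 ± 2.3% of the pair in control and 31.0 ± 4.5% in NaCl, and the share was higher in NaCl in each mouse, with the least difference in mouse 3, at 25.5% and 27.6%. *Atg101*, *Atg12* and *Atg16l2* are given in full because their adjusted p-values were near the threshold, which was noticed after the values had been seen.

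The E2-like gene *Atg10* had the lowest CPM of the 36, at 11.6, 14.0 and 12.9 in control and 10.6, 10.4 and 9.58 in NaCl, apart in all libraries (edgeR with block, -0.33, SE 0.17, adjusted p = 0.269). The other 7 genes of this group, *Atg3*, *Atg4b*, *Atg4c*, *Atg4d*, *Atg5*, *Atg7* and *Atg16l1*, had overlapping groups and fitted changes between -0.20 for *Atg4b* and 0.07 for *Atg4d*. In *Atg4d*, 19.3% of the exon bases overlap *Kri1* on the opposite strand, which had 21.7 ± 3.5 CPM in the control and 29.4 ± 6.5 CPM in the NaCl libraries, against 18.2 ± 0.38 and 19.1 ± 5.1 CPM for *Atg4d*. Reads in the overlap could have been left uncounted, and its effect on the *Atg4d* count was not tested. Per kilobase of exon in control, *Atg3* was the highest of the 10 at 20.9 CPM and *Atg16l2* the lowest at 1.802 CPM.

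Compared per kilobase of exon, the 36 genes spanned from 1.802 CPM for *Atg16l2* to 194 CPM for *Sqstm1* in control. *Sqstm1* and *Gabarap* (184 CPM) stood above the rest, followed by *Gabarapl1* at 65.8 CPM, *Nbr1* at 24.4 CPM and *Mitf* at 23.4 CPM. In NaCl, *Gabarap* was at 169 CPM and *Sqstm1* at 131 CPM on the same scale, so the order of the first pair was the opposite there. The lengths are the summed exon lengths of GENCODE M21 and not those of the transcripts used in these cells. Bases that overlap another gene were kept in them.

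**Figure D4:**
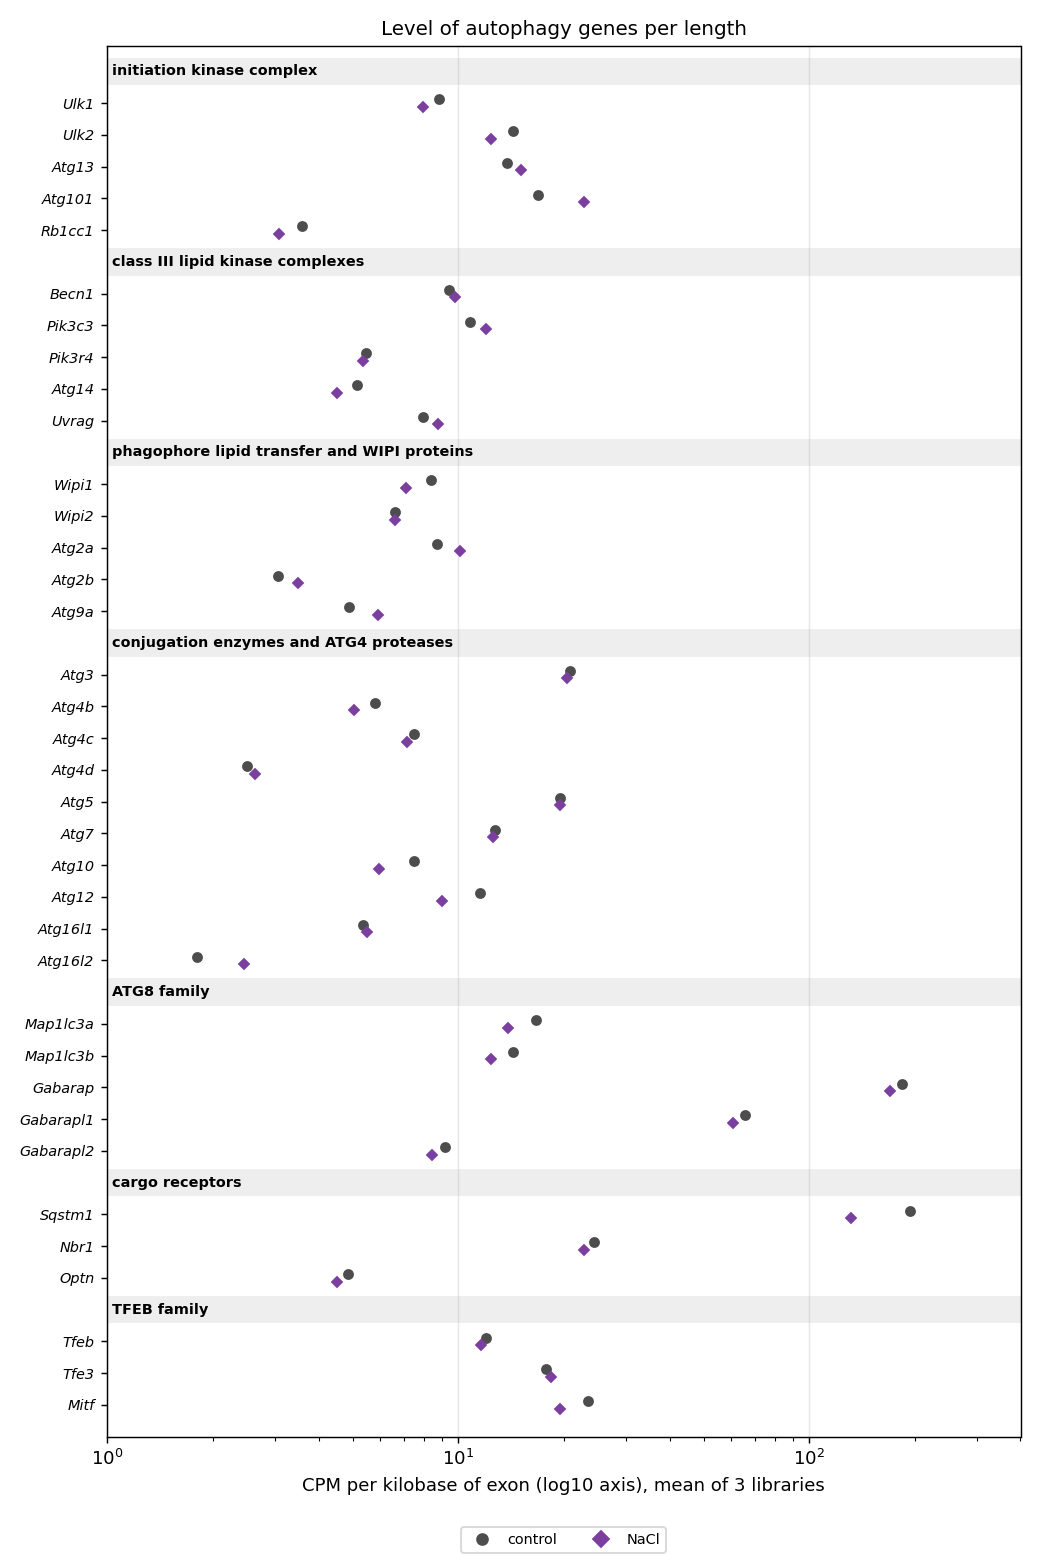
Mean level of each of the 36 genes in CPM per kilobase of exon on a log10 axis, for the 3 control libraries (grey circles) and the 3 NaCl libraries (purple diamonds), by role. *Sqstm1* and *Gabarap* lie furthest right, at 194 and 184 CPM per kilobase in control, and *Atg16l2* lies furthest left at 1.802.

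Genes around this machinery were followed in 5 further lists of 111 symbols, of which 108 were tested. These lists were chosen with earlier results of these data known, so their shares beside those of all genes are description only. In edgeR without the block, 0 were higher and 0 were lower, while 15 had an unadjusted p under 0.05. With the block, 0 were higher and 10 were lower, which is 9.26% of them against 4.3% of all genes, and DESeq2 called 0 higher and 3 lower, against 0.975% of all genes lower, with *Bnip3* and *Fnip2* among the 3. The median log2 fold change with the block was -0.09 over the 108 genes and -0.02 over all genes. By list, the block fit called 1 of 16 other autophagosome formation genes, 1 of 17 other cargo receptor and mitophagy genes, 0 of 15 autophagosome fusion genes (3 with an unadjusted p under 0.05), 2 of 35 mTORC1, AMPK and nutrient control genes, and 6 of 25 genes of the list of *Tfec* and lysosomal genes known as TFEB targets, all 10 lower in NaCl. The last list had a median of -0.19, and 8 of its 25 genes had all NaCl libraries below control, where 10.1% of all genes did.

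*Bnip3*, a mitophagy receptor of the outer mitochondrial membrane, was at 15.7, 22.4 and 20.4 CPM in control and 11.9, 6.35 and 7.43 CPM in NaCl. All NaCl libraries were below control, least so in mouse 1 (edgeR with block, log2 fold change -1.20, SE 0.20, adjusted p = 0.000257, and 0.0811 without it). Its transcripts share 34.4% of their 75-base windows with other genes. *Bcl2*, whose product binds Beclin 1 and restrains it, was at 14.7, 17.0 and 18.7 CPM in control and 10.2, 10.2 and 15.3 CPM in NaCl, lower in each mouse with overlapping groups (-0.53, SE 0.16, adjusted p = 0.0404 in edgeR with block, and 0.323 without it).

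Both called genes of nutrient control act upstream of mTORC1. *Fnip2*, encoding a partner of folliculin that controls how mTORC1 recognises TFEB, was at 377, 386 and 352 CPM in control and 272, 207 and 231 CPM in NaCl, with no overlap (edgeR with block, -0.66, SE 0.12, adjusted p = 0.000549, and 0.0752 without it). *Sesn2*, encoding the leucine sensor Sestrin 2, was at 40.0, 35.8 and 36.8 CPM in control and 31.4, 12.6 and 17.7 CPM in NaCl, again with no overlap and the smallest fall in mouse 1 (-0.94, SE 0.17, adjusted p = 0.000395 in edgeR with block, and 0.246 without it).

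The lysosomal genes called with the block included *Hexa*, a lysosomal glycosidase gene, *Naglu*, an enzyme of heparan sulfate breakdown, *Ctsd*, the aspartic protease cathepsin D, *Psap*, the precursor of the saposins, and *Atp6v0d2*, a subunit of the lysosomal proton pump. *Hexa* fell from 816 ± 47.6 to 628 ± 74.1 CPM and *Naglu* from 126 ± 7.6 to 93.2 ± 14.4 CPM. *Psap* fell from 11100 ± 845 to 8005 ± 1433 CPM and *Atp6v0d2* from 504 ± 37.3 to 362 ± 58.9 CPM, and in these 4 genes the NaCl libraries lay below control. *Ctsd* was at 7591, 10233 and 9317 CPM in control and 6880, 7669 and 5892 CPM in NaCl, where the groups overlapped, and 31.3% of its windows are shared with *Gm49369*. The log2 fold changes of *Hexa*, *Naglu*, *Psap*, *Atp6v0d2* and *Ctsd* were between -0.49 and -0.38 with adjusted p-values from 0.00797 to 0.0428 in edgeR with the block, and from 0.223 to 0.349 without it. *Bnip3*, *Fnip2* and *Sesn2* also passed with each of the 3 mice left out of the block fit. *Atp6v0d2*, *Bcl2*, *Ctsd*, *Hexa*, *Naglu* and *Psap* did not pass without mouse 1, where their adjusted p in edgeR lay between 0.0793 (*Naglu*) and 0.262 (*Hexa*), and *Ctsd*, *Hexa*, *Naglu* and *Psap* also did not pass without mouse 3 (0.181 to 0.44) nor *Bcl2* without mouse 2 (0.16). In all, 4 of the 108 genes were lower without mouse 1, 14 without mouse 2 and 8 without mouse 3.

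**Figure D5:**
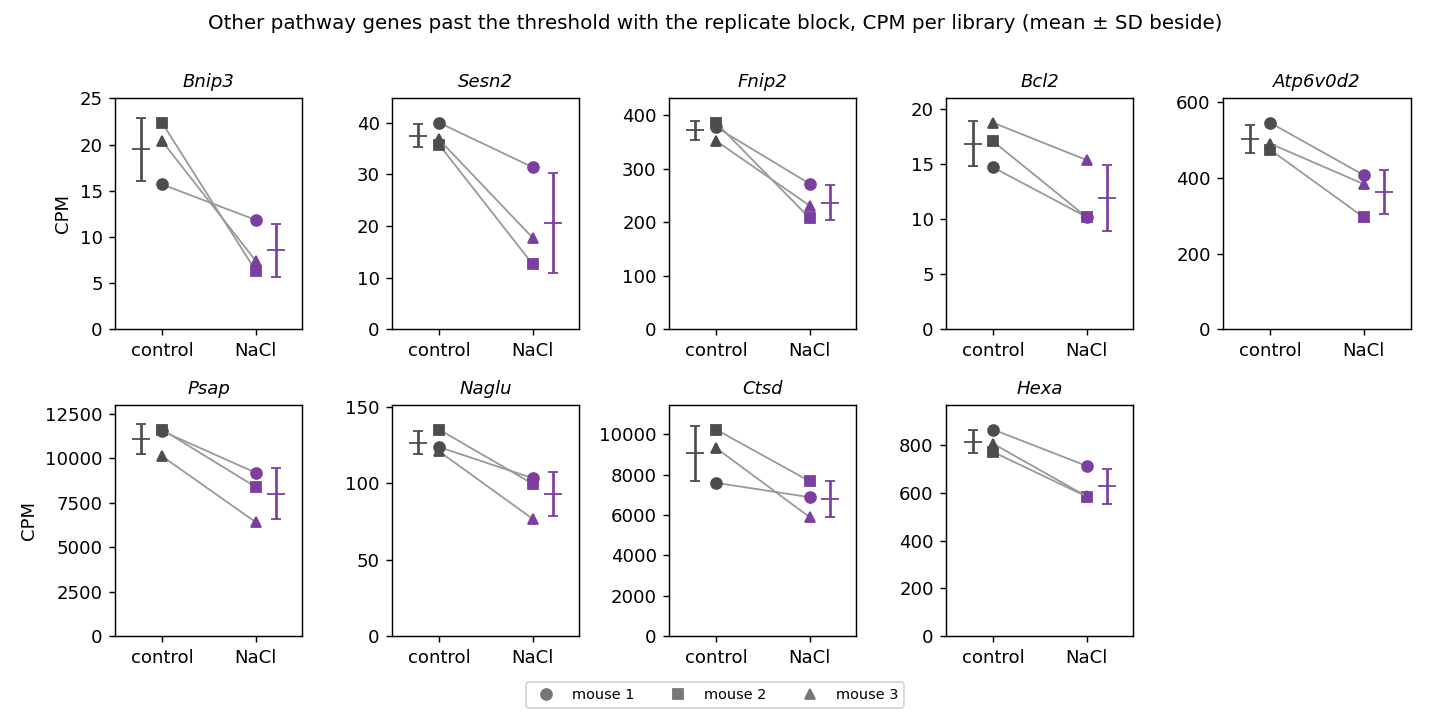
CPM of 9 of the 10 other pathway genes that were lower in the edgeR fit with the replicate block, by library, with axes from 0, grey lines joining the libraries of 1 mouse and bars giving mean ± SD (n = 3). Every line falls, and the fall of *Bnip3* and *Sesn2* is smallest in mouse 1.

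A test of the mouse terms over both groups together, in the block fit and added after the values had been seen, passed for 3 of the 36 genes (edgeR, 8.89% of all genes), and differences between mice within each group were not tested. *Ulk1* was at 81.5, 42.3 and 47.4 CPM in control mice 1, 2 and 3 and at 73.0, 41.7 and 39.5 CPM in NaCl, so mouse 1 was high in both groups (adjusted p = 0.000138 for the mouse terms in edgeR). *Rb1cc1* was at 69.5, 44.0 and 44.9 CPM in control and 54.8, 26.2 and 54.9 CPM in NaCl (adjusted p = 0.00792, edgeR), so mouse 3 was near mouse 2 in control and near mouse 1 in NaCl, and *Atg2a* was at 85.6, 58.6 and 55.9 CPM in control and 90.5, 81.9 and 61.1 CPM in NaCl (adjusted p = 0.0319). The summed level of 5 monocyte markers was also highest in mouse 1 in both groups, with 261 CPM in the control and 313 CPM in the NaCl library, with *Ccr2* at 211, 83.3 and 98.2 CPM in control and 258, 38.7 and 99.2 CPM in NaCl. The part of this in the levels of *Ulk1*, *Rb1cc1* and *Atg2a* was not tested.

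The labelled cell type was checked with markers. All 8 macrophage markers were present, and their summed level ranged from 15012 to 16353 CPM in control and from 23394 to 30923 CPM in NaCl. Most of that sum was *Lyz2*, at a mean of 9817 CPM in control and 19148 CPM in NaCl. In edgeR with the block, *Lyz2* and *Csf1r* were higher and *Mertk* was lower. The 8 neutrophil markers summed to between 245 and 533 CPM in control and between 265 and 387 CPM in NaCl, and the 5 monocyte markers to between 159 and 261 CPM and between 93.6 and 313 CPM. In edgeR with the block, 2 neutrophil markers were lower, *Ngp* (log2 fold change -0.56, adjusted p = 0.0189) and *Mpo* (-0.73, adjusted p = 0.0245). The fitted change there was below 0 for all 8 neutrophil and all 5 monocyte markers. It was also below 0 for 5 of 8 macrophage, 6 of 7 dendritic cell, 2 of 2 B cell and 3 of 3 stromal markers, and above 0 for *Klrb1c*. Without the block, edgeR gave 0.092 for *Elane* and 0.016 for *Ccr2*, each higher in NaCl in 2 of 3 mice. In edgeR or DESeq2 without the block, 0 neutrophil and 0 monocyte markers were called, with 1 and 0 of them at an unadjusted p under 0.05 in each. The 7 dendritic cell markers summed to at most 4.80 CPM and the 3 tested stromal markers to at most 4.34 CPM, the 2 tested B cell markers to at most 10.4 CPM, and the T and NK cell list had 1 of 4 genes tested, *Klrb1c*, at 1.02 to 1.26 CPM in control and 2.08 to 2.35 CPM in NaCl. None of the 4 erythroid markers was among the genes tested. The part of macrophage state or of other cells in the level of *Sqstm1* and the lysosomal genes was not tested.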

How the data were processed

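BMDM RNA from 3 mice in 2 conditions gave 6 libraries. The authors trimmed 75-base single-end reads with fastp 0.20.0, aligned them with STAR 2.7.10b, and deposited raw counts of reads per gene. A normalized signal that they also deposited is the raw count over a DESeq2 size factor. This held for every value, so the raw counts were tested.

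The 15903 genes whose counts summed to 10 or more were fitted in edgeR 4.0.16 (glmQLFit, glmQLFTest, TMM, NaCl against control), with Benjamini-Hochberg adjustment over all of them at 0.05. DESeq2 1.42.0, used by the authors in another version, and a replicate block for the mouse were alternatives. The labels give mouse numbers, and the pairing was taken from them. Deviations from the group means correlated at 0.43, 0.15 and 0.22 within mice 1, 2 and 3, against -0.35 to 0.12 for other pairs. For NaCl mouse 2 the correlation was 0.151 with control mouse 2 and 0.124 with control mouse 3. Deviations within a group sum to 0, so values above 0 for some pairs force others below 0. These correlations are description only. CPM came from edgeR. Other alternatives were another scaling, filter or test (limma 3.58.1), thinning every library to 4088065 counts, a GC and length correction, and leaving out libraries or mice. Scripts were tested on simulated data.

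The members and lists were chosen with earlier results of these data known. Full values were given for members past the threshold in 1 of the 3 fits and for ATG8, cargo receptor and TFEB family genes, and other pathway genes were named if past it, with *Tfec* added. The values of 1 gene past the threshold, which stays in the counts, are not reported here. The methods name mm10 with GENCODE vM32, an annotation of a different build, so gene positions are by chromosome only. Lengths, GC content and overlaps came from GENCODE M21, in which 97.4% of the genes tested were found by identifier. Promoters came from RefSeq GRCm38.p6. The counting of reads that match several genes or both strands limits genes with shared or overlapping sequence, of which 6 members had over 10% and 23 members no shared 75-base window. R 4.3.3 and Python 3.11.15 were used.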

Additional observations from a re-analysis of the deposited data

How the results depend on the processing

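Over 21 alternatives, 47 genes gave 987 values, of which 853 kept direction and side of the threshold, 85 passed where the edgeR fit without a further term did not, and 49 had the other sign. All 49 belong to autophagy genes with no call in either edgeR fit or DESeq2, and the cause was not tested. Depth was lowest in NaCl mouse 3, with 40 counts of the lowest member. The test between mice was chosen after seeing the data.

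The replicate block gave 732 genes higher and 684 lower against 76 and 28 without it, 1 autophagy gene lower and 10 other pathway genes lower. It changed no other call among the autophagy genes. DESeq2 with the block gave 452 and 354, with 1 autophagy gene and 9 other genes lower, and DESeq2 alone gave 245 and 155, with 1 and 3. The likelihood ratio test gave 267 and 196, with 1 and 3, and keeping genes with a total of 1 or more gave 362 and 300, with 1 and 4. Thinning gave 37 and 15. The block with thinning gave 499 and 396, with 1 autophagy gene higher (*Atg101*) and 1 lower, and 8 other genes lower. The block with GC and length correction gave 1167 and 1085, with 2 autophagy genes higher (*Atg101*, *Atg16l2*), 2 lower (*Sqstm1*, *Atg12*) and 19 other genes lower. Without 1 library, the counts over all genes ran from 8 to 123 higher and from 0 to 46 lower, and the block fit without mouse 1, 2 or 3 gave 469, 758 and 715 higher and 417, 661 and 585 lower. Without 1 library or mouse, they ran from 0 to 2 higher and from 0 to 1 lower among autophagy genes, and from 0 to 14 lower among other pathway genes. Without mouse 3, the block fit called *Atg101* (adjusted p = 0.011) and *Atg16l2* (0.049) higher, *Rb1cc1* lower (0.0195) and no longer *Sqstm1*.

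Changed signs, as log2 fold changes, were as follows. *Wipi2* was at 0.00051 in DESeq2 with the block, 0.0074 in DESeq2, 0.0057 with median-ratio factors, 0.0022 with total count scaling and 0.0102 with filterByExpr. With thinning, without and with the block, *Pik3r4* was at 0.029 and 0.029, *Atg3* at 0.023 and 0.022, *Atg4d* at -0.0905 and -0.099, *Atg5* at 0.13 and 0.11 and *Atg7* at 0.0196 and 0.012. *Atg3* was at 0.053 with the block and GC correction. With 1 mouse left out of the block fit, *Wipi2* was at 0.055, *Atg3* at 0.025, *Atg7* at 0.048 and *Tfeb* at 0.035 (mouse 3), *Atg4c* at 0.043, *Atg4d* at -0.081, *Atg5* at 0.23 and *Nbr1* at 0.0018 (mouse 2), and *Pik3r4* at 0.016 (mouse 1). With 1 library or mouse left out, *Ulk1* ran from -0.48 to 0.21, *Rb1cc1* from -0.53 to 0.065 (from -0.41 without 1 library), *Pik3r4* from -0.051 to 0.016 (to 0.00013 without 1 library), *Atg14* from -0.44 to 0.022, *Wipi2* from -0.088 to 0.061, *Atg3* from -0.071 to 0.037, *Atg4c* from -0.23 to 0.087, *Atg4d* from -0.082 to 0.28 (to 0.27 without 1 library), *Atg5* from -0.21 to 0.23, *Atg7* from -0.098 to 0.083, *Atg16l1* from -0.041 to 0.16, *Nbr1* from -0.22 to 0.042 and *Tfeb* from -0.11 to 0.035.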
